A study of Mus musculus with 20 samples.

Results

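The immunity related GTPases are a family of interferon-inducible proteins of the mouse, and the 8 genes described here are Irgm1, Irgm2, Igtp, Ifi47, Tgtp1, Tgtp2, Iigp1 and Gm4951. They were taken by symbol from the 36528 gene models of the deposited tables, all 8 were found, and all 8 were among the 15390 genes that passed the filter on low counts. The RNA came from macrophages and from monocytes sorted out of MC38 tumours, which grow from a mouse colon carcinoma line. The mice were controls or had been given aPDL1, an antibody against PD-L1, which is a ligand of the inhibitory receptor PD-1, and RNA was taken 7 days after the start of treatment. The 4 groups of cell type and treatment held 5 libraries each, 20 in all. The sources used here do not give genotype, strain, age, the kind of control treatment, the sort gates or whether each library is a separate animal. The p-values therefore rest on the spread between libraries, some or all of which may be technical. Control libraries all carry lower sample numbers than treated ones, and treatment cannot be told apart from that order.

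Interferon-gamma, made mainly by T and NK cells, binds its receptor on macrophages and monocytes and signals through the kinases JAK1 and JAK2 to genes that carry DNA elements called GAS. The pathway also induces IRF1, and IRF factors bind a second element, the ISRE. In mouse cells infected with Toxoplasma or Chlamydia, GTPases induced in this way load onto the vacuole around the microbe and break it up. The regulatory members Irgm1, Irgm2 and Irgm3 (encoded by Igtp) sit on the cell's own membranes and keep the effector members inactive there, and the effectors include Irga6 (encoded by Iigp1), Irgb6 (Tgtp1 and Tgtp2) and Irgd (Ifi47). Guanylate binding proteins and the machinery that conjugates LC3 to membranes take part in directing effectors to the vacuole. Gm4951 is a neighbour of Iigp1 on the chromosome, and RefSeq lists it also as Ifgga2.

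In the RefSeq annotation of GRCm38.p6, 6 of the 8 genes lie on chromosome 11. Irgm1 (Entrez 15944) spans 48865245 to 48871420, Tgtp1 (Entrez 21822) 48985329 to 48992246, Tgtp2 (Entrez 100039796) 49057196 to 49064212 and Ifi47 (Entrez 15953) 49076587 to 49096987. Further along the same chromosome, Igtp (Entrez 16145) spans 58199556 to 58207592 and Irgm2 (Entrez 54396) 58214977 to 58222783. Gm4951 (Entrez 240327, 60212004 to 60248440) and Iigp1 (Entrez 60440, 60373616 to 60392634) lie on chromosome 18.

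Counts were of reads that aligned to 1 place only, and this limits the Tgtp pair. Of the 50-base windows of its longest coding transcript (GENCODE, GRCm38), Tgtp1 shared 91.4% with other genes, 89.4% with Tgtp2, and Tgtp2 shared 90.6%. The shares were 12.3% for Igtp, all with Irgm2, 7.30% for Irgm2, mostly with Igtp, and 0.814% to 4.62% for the other 4 genes, among them 3.71% for Ifi47, all with Olfr56. Values of Tgtp1 and Tgtp2 taken singly are therefore uncertain.

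RefSeq promoters of the GRCm38.p6 build were at hand for the 6 members on chromosome 11, and both elements named above were looked for in them, since these elements are the known entry points of the pathway. GAS was written TTCNNNGAA and ISRE was written GAAA, any 2 bases, GAAA, and both strands of the 250 bases before the start site were searched. The 5 windows that hold a match follow, each giving the last 150 bases before the start, read along the gene's strand, with matches in capitals.
Irgm1, chr11:48871421-48871570, minus strand: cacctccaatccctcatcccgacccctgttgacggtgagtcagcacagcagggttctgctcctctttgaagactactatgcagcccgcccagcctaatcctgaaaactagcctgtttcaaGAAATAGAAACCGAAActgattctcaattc
Irgm2, chr11:58214827-58214976, plus strand: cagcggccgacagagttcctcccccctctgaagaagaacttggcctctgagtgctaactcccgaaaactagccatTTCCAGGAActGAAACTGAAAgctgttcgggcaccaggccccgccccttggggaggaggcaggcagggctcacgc
Igtp, chr11:58199406-58199555, plus strand: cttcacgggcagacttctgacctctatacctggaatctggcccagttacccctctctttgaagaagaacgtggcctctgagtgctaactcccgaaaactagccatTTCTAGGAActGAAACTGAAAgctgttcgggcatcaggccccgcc
Tgtp1, chr11:48992247-48992396, minus strand: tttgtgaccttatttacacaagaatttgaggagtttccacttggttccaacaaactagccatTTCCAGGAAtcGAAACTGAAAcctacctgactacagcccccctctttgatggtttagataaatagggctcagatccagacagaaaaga
Tgtp2, chr11:49064213-49064362, minus strand: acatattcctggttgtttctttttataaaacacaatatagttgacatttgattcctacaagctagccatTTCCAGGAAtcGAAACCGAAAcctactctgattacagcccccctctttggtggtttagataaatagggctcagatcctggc

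Both elements stood together in 4 of the 6 promoters, those of Irgm2, Igtp, Tgtp1 and Tgtp2, and in each of these the GAS match came first, with 2 bases between it and the ISRE match. Irgm1 held 2 ISRE matches that overlap each other and no GAS match, and Ifi47 held neither word in its window. An ISRE match was thus in 5 of 6 member promoters against 2.98% of all 32851 promoters, and a GAS match in 4 of 6 against 7.02%. Both were in 0.332% of all promoters. Igtp and Irgm2 are close relatives, as are Tgtp1 and Tgtp2, so the 4 pairs of elements are not 4 separate cases. A match to these letters is not a shown binding site, and its absence from Ifi47's window covers only these words and these bases.

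All 8 genes were transcribed in all 20 libraries, with 91 counts for the lowest (Tgtp1 in a macrophage control) and 33375 for the highest (Irgm1 in a treated monocyte library). Levels between genes were compared on the deposited nRPKM scale, which is per length and adjusted for library size. In control macrophages the order was Irgm1 (119 ± 14.9 nRPKM, SD, n = 5), Ifi47 (118 ± 25.2), Igtp (101 ± 30.7), Iigp1 (82.8 ± 21.8), Irgm2 (27.5 ± 6.84), Gm4951 (11.3 ± 2.03), Tgtp2 (10.97 ± 2.20) and Tgtp1 (1.61 ± 0.888). Irgm1 and Ifi47 were not separated there, Irgm1 being higher in 3 of 5 libraries, nor were Gm4951 and Tgtp2, with Gm4951 higher in 2 of 5, and Ifi47 was above Igtp in 4 of 5. Treated macrophages had Ifi47 (191 ± 30.9 nRPKM), Irgm1 (185 ± 29.7), Igtp (169 ± 34.1), Iigp1 (123 ± 26.4), Irgm2 (43.6 ± 8.66), Gm4951 (19.5 ± 3.32), Tgtp2 (17.8 ± 3.98) and Tgtp1 (4.45 ± 1.55), and each gene was above the next in all 5 libraries.

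Monocytes had the same 3 genes in the first places and another order in the last ones. Control monocytes had Ifi47 (227 ± 61.4 nRPKM, SD, n = 5), Irgm1 (196 ± 41.9), Igtp (171 ± 42.1), Iigp1 (40.4 ± 13.8), Irgm2 (34.9 ± 6.37), Tgtp2 (11.4 ± 2.30), Tgtp1 (4.65 ± 1.73) and Gm4951 (3.45 ± 1.08), with Iigp1 above Irgm2 in 3 of 5 libraries, and Irgm1 above Igtp and Tgtp1 above Gm4951 in 4 of 5 each. In treated monocytes the order was the same, from Ifi47 (425 ± 74.2 nRPKM), Irgm1 (373 ± 76.9) and Igtp (322 ± 83.0) through Iigp1 (101 ± 25.3) and Irgm2 (62.6 ± 12.8) to Tgtp2 (23.6 ± 3.15), Tgtp1 (14.9 ± 4.40) and Gm4951 (9.16 ± 2.31). Summed over the 8 genes, the level was 473 ± 98.5 nRPKM in control and 754 ± 134 in treated macrophages, and 688 ± 158 in control and 1331 ± 278 in treated monocytes. Iigp1 was 17.4% of that sum in control macrophages and 16.2% after treatment, against 5.98% and 7.53% in monocytes, and these shares did not overlap between the cell types in any library. Nor did those of Gm4951 (2.41% and 2.59% against 0.529% and 0.685%) and, in the other direction, Ifi47 (25.1% and 25.5% against 32.7% and 32.1%).

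**Figure D1:**
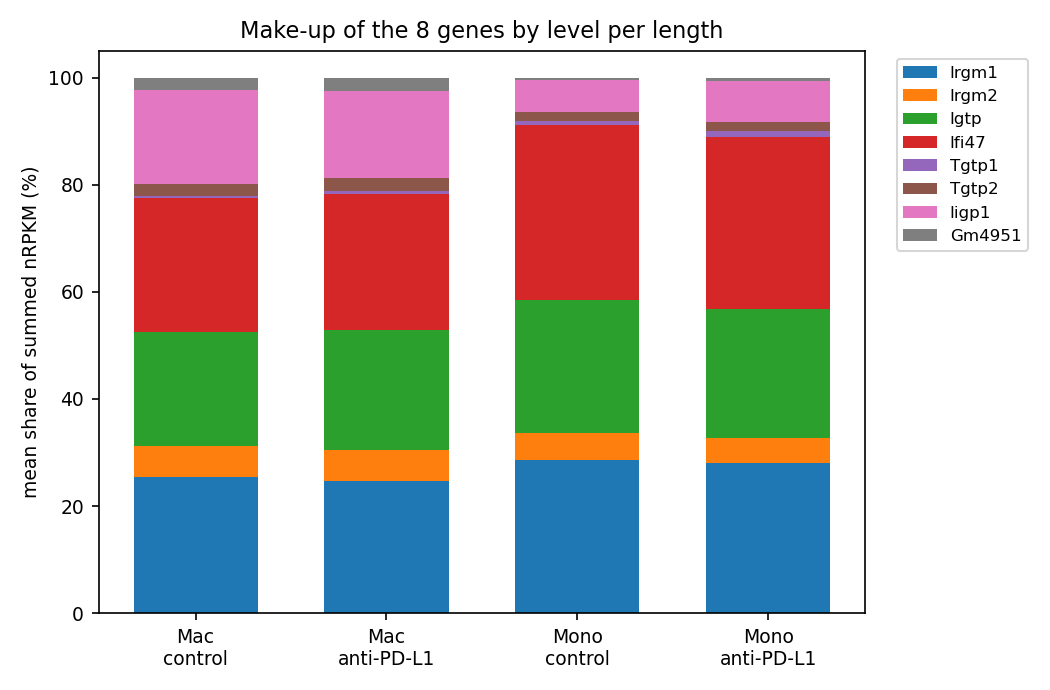
Mean share (%) that each gene contributes to the summed nRPKM of the 8 genes in each of the 4 groups (5 libraries each; Mac, macrophages; Mono, monocytes). Iigp1 makes up 17.4% and 16.2% in the macrophage groups and 5.98% and 7.53% in the monocyte groups. Shares of Gm4951 and Ifi47 also lie apart between the cell types.

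The first comparison asks how anti-PD-L1 treatment changed these genes in macrophages. All 8 had higher mean levels after treatment, by a median log2 fold change of 0.68 against -0.01 over all genes tested. By edgeR's quasi-likelihood test, 6 of the 8 passed an adjusted p of 0.05 and 0 fell, where 4.65% of all genes tested passed, 1.73% by rising and 2.92% by falling. Here and below, levels within a gene are CPM (counts relative to library size, scaled by TMM), listed by replicate 1 to 5, a numbering with no order in time or treatment. A change in bulk RNA cannot be told apart between more RNA per cell and more cells of a kind that expresses the gene.

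Irgm1, a regulator found on the Golgi and on lysosomes, was at 267, 277, 347, 283 and 247 CPM in control and at 454, 430.4, 425, 541 and 339 CPM in treated macrophages. Treated replicate 5 lay just under control replicate 3, and otherwise all treated libraries were above all controls. Its mean went from 284 ± 37.6 to 438 ± 72.5 CPM (SD, n = 5), a log2 fold change of 0.62 (SE 0.16, adjusted p = 0.041, edgeR). Irgm2, the second regulator, was at 82.4, 85.6, 146, 94.2 and 94.2 CPM in control and 191, 141, 159, 184 and 114 CPM in treated libraries (0.65, SE 0.18, adjusted p = 0.047, edgeR). Igtp, the third regulator, which localises to the endoplasmic reticulum, was at 169, 197, 332, 184 and 186 CPM in control and 356, 333, 360.3, 457 and 255 CPM in treated macrophages. Its log2 fold change of 0.72 (SE 0.21) did not pass (adjusted p = 0.055, edgeR), and it did in limma-voom with neighbouring libraries as a block (adjusted p = 0.044) but not in limma-voom without the block (adjusted p = 0.079). For all 3 regulators, control replicate 3 was the highest control and treated replicate 5 the lowest treated library.

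Among the effectors, Ifi47 was at 184, 275, 322, 244 and 214 CPM in control and 415, 413, 379, 477 and 297 CPM in treated macrophages, and rose by 0.68 (SE 0.19, adjusted p = 0.047, edgeR). Tgtp2 was at 29.3, 31.3, 43.7, 30.1 and 26.3 CPM in control and 59.9, 57.9, 48.5, 59.5 and 32.2 CPM in treated libraries (0.68, SE 0.17, adjusted p = 0.040, edgeR). Tgtp1, the lowest of the 8 here, was at 5.68, 2.59, 8.97, 3.08 and 3.23 CPM in control and 13.5, 16.0, 11.7, 17.3 and 5.77 CPM in treated libraries. Its log2 fold change of 1.45 (SE 0.34, adjusted p = 0.040, edgeR) was the highest of the 8, with a 95% interval of 0.73 to 2.16.

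The pair on chromosome 18 differed in its calls. Iigp1, which encodes an effector of known crystal structure, was at 259, 245, 399.8, 225 and 220.2 CPM in control and 453, 393, 382, 485 and 259 CPM in treated macrophages. It did not pass (0.55, SE 0.22, adjusted p = 0.14, edgeR), and control replicate 3 exceeded 3 of the 5 treated libraries. Gm4951 was at 43.0, 35.7, 54.9, 37.6 and 36.7 CPM in control and 81.4, 76.3, 68.5, 77.9 and 50.4 CPM in treated libraries, and rose by 0.77 (SE 0.21, adjusted p = 0.047, edgeR). The treated and control macrophages overlapped for all 8 genes, where 4.11% of all genes had every treated above every control library. Leaving out control replicate 3, chosen after its values were seen, 7 of 8 genes were higher in all treated libraries than in all other controls (6.08% of all genes), Iigp1 being the exception. Leaving out treated replicate 5 instead, 6 of 8 were (5.71% of all genes), and leaving out any other macrophage library 0 were (4.35% to 6.49% of all genes).

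**Figure D2:**
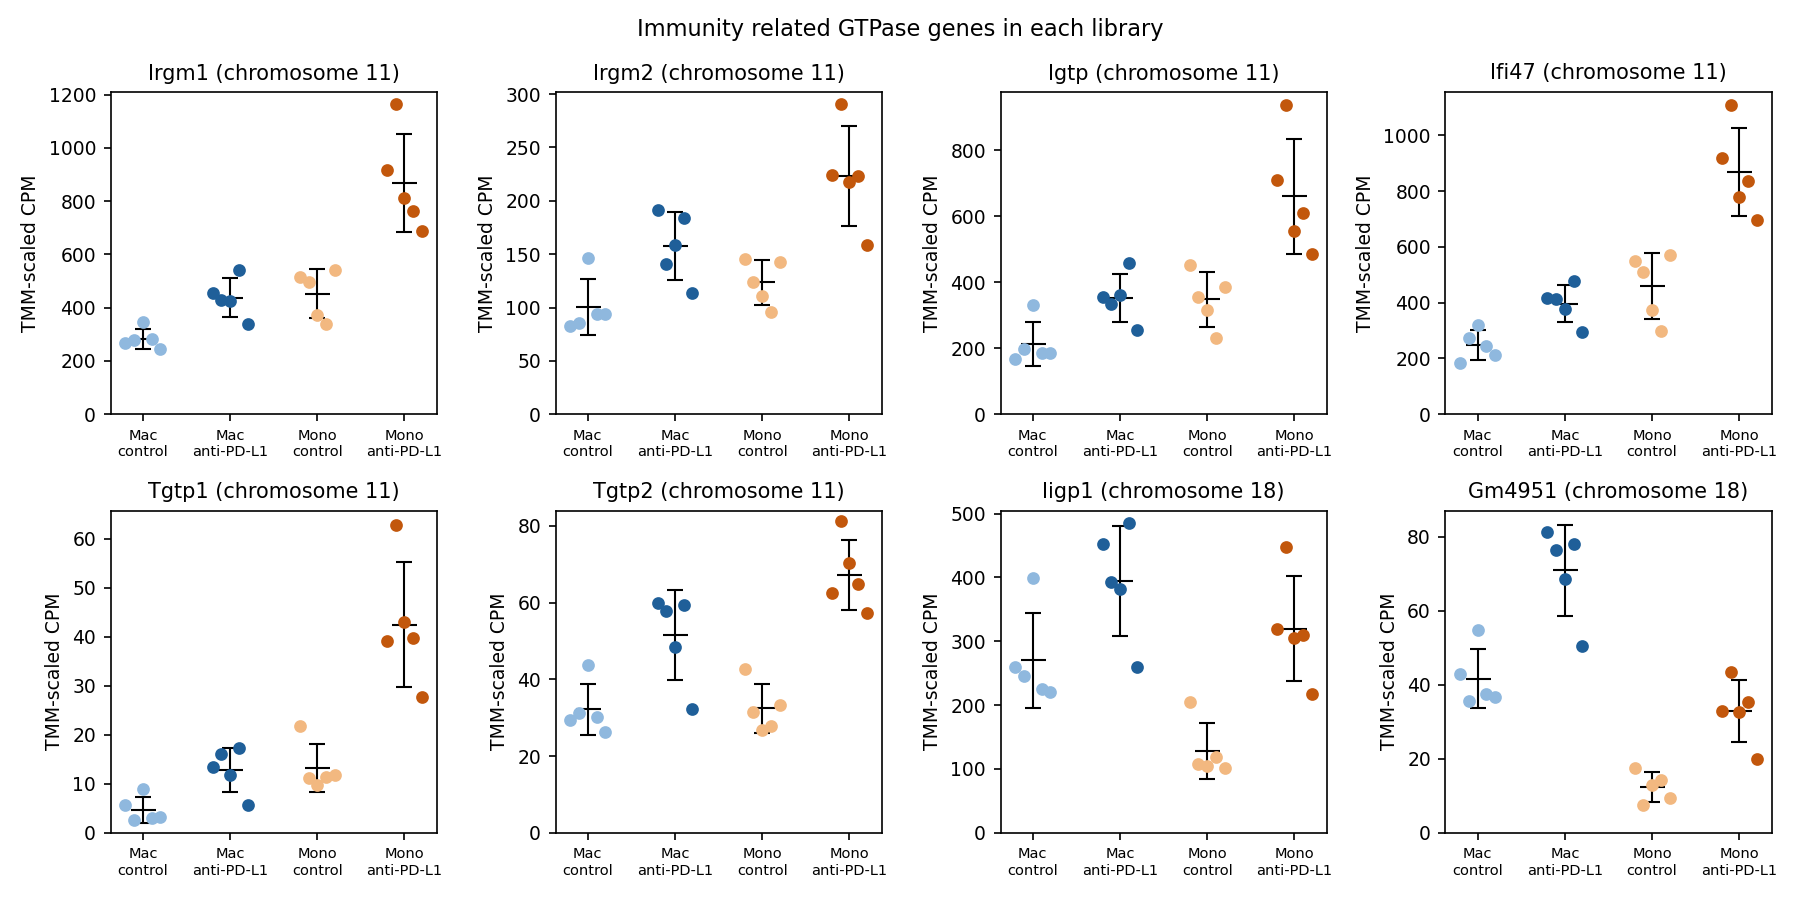
Level of each gene (CPM scaled by TMM, linear axis from 0) in every library of the 4 groups; points are libraries in the order of their replicate numbers, and black bars are the mean ± SD (n = 5). Treated and control monocytes do not overlap for any of the 8 genes, while in macrophages control replicate 3 and treated replicate 5 meet.

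The macrophage calls sit close to the threshold. The adjusted p of the 6 called genes lay between 0.040 and 0.047, and 0 of 8 passed when any of 6 libraries was left out: macrophage control replicate 1 or 5, treated macrophage replicate 1, 3 or 4, or monocyte control replicate 1. In these 6 fits only 14 to 124 of all genes passed, against 715 with all 20 libraries, so the loss was not particular to the 8. Without treated monocyte replicate 1, 3 of the 8 passed, and 407 of all genes. In limma-voom without a block 0 of 8 passed, with an adjusted p of 0.052 for Irgm1, 0.059 for Tgtp1 and 0.060 for Tgtp2, and with the block of neighbouring libraries 7 of 8 did, Iigp1 being the exception. Over all genes 266 of 715 calls in macrophages were rises, and this split turned in limma-voom (148 of 191 without and 195 of 243 with the block) and without macrophage control replicate 3 (261 of 350, edgeR). The median log2 fold change stayed between 0.66 and 0.86 in all 20 fits that left out 1 library.

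RNA of fibroblast markers moved with treatment in the same libraries. The 14 listed markers summed to 92.2 to 2170.0 CPM in control macrophages and to 51.1 to 375 CPM in treated ones. None was at 0, and all 14 had lower estimates after treatment (log2 fold change -3.71 to -0.84, median -2.85). By edgeR 7 of 14 were called lower, where 2.92% of all genes were. With the markers' mean level as a covariate 0 of the 8 GTPase genes passed in macrophages (edgeR, median log2 fold change 0.61), where 2 of all genes passed. Without the 6 control libraries highest in these markers 1 passed, Tgtp1, with a median of 0.78, where 70 of all genes passed. In the macrophage controls, replicates 5, 1 and 3 were richest in fibroblast markers, at 2170.0, 1732 and 1308 CPM in sum. They held the GTPase genes at 1027, 1039 and 1654 CPM in sum. Replicates 2 and 4, with 439 and 92.2 CPM of the markers, held these genes at 1149.5 and 1102 CPM. The 11 T and NK cell markers matched, of 14 listed, summed to 10.1 to 23.0 CPM in control and 9.12 to 41.4 CPM in treated macrophages, and 0 of 11 passed in either direction (edgeR). Treated replicate 5, the highest treated macrophage library in T and NK markers, was the lowest for all 8 GTPase genes. The part of these other cells in the results was not tested.

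The second comparison asks the same of monocytes. All 8 genes rose after anti-PD-L1, with a median log2 fold change of 0.995 against 0.02 over all genes tested, and 8 of 8 passed where 25.3% of all genes passed, 9.92% by rising and 15.4% by falling (edgeR). Every treated monocyte library was above every control monocyte library for each of the 8 genes, a separation upward that 5.09% of all genes showed. In all 20 fits that left out 1 library, 8 of 8 passed.

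The regulators moved by nearly equal amounts. Irgm1 was at 514, 498, 374, 339 and 543 CPM in control and at 918, 1164, 814, 762 and 687 CPM in treated monocytes, and rose by 0.94 (SE 0.16, adjusted p = 0.0033, edgeR). Irgm2 was at 145, 123, 110.5, 95.7 and 142 CPM and then at 224, 291, 217, 223 and 159 CPM (0.85, SE 0.18, adjusted p = 0.0053, edgeR). Igtp was at 454, 354, 315, 231 and 386 CPM in control and 709, 937, 557, 609.5 and 487 CPM in treated libraries (0.92, SE 0.22, adjusted p = 0.0071, edgeR). On the linear scale these are rises of 1.92, 1.81 and 1.90 times.

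Ifi47, the effector highest per length in monocytes, was at 549, 508, 375, 297 and 571 CPM in control and 919.9, 1109, 777, 836 and 695 CPM in treated libraries, a rise of 0.91 (SE 0.19, adjusted p = 0.0047, edgeR). Tgtp2 was at 42.8, 31.5, 26.8, 27.9 and 33.2 CPM and then 62.4, 81.2, 70.4, 64.8 and 57.3 CPM (1.05, SE 0.17, adjusted p = 0.0032, edgeR). Tgtp1 was at 21.8, 11.2, 9.68, 11.4 and 11.8 CPM in control and 39.1, 62.8, 43.0, 39.7 and 27.8 CPM in treated monocytes, and rose by 1.69 (SE 0.34, adjusted p = 0.0047, edgeR). Tgtp1 and Tgtp2 summed to 1 gene left 7 of 7 members called in monocytes and 5 of 7 in macrophages.

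On chromosome 18, Iigp1 was at 205, 108, 105, 119 and 102 CPM in control and 318, 447, 305, 310.2 and 218 CPM in treated monocytes, and rose by 1.32 (SE 0.23, adjusted p = 0.0034, edgeR), 2.50 times on the linear scale. Gm4951 was at 17.6, 7.55, 12.8, 14.3 and 9.52 CPM in control and 33.0, 43.3, 32.7, 35.2 and 19.9 CPM in treated libraries (1.41, SE 0.22, adjusted p = 0.0032, edgeR), 2.65 times. For both genes control replicate 1 was the highest control, and it lay just under treated replicate 5, the lowest treated library.

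Fibroblast markers summed to 344 to 3429.5 CPM in control monocytes and to 61.8 to 536 CPM in treated ones. All 14 had lower estimates after treatment (log2 fold change -3.88 to -0.03, median -2.49). By edgeR 9 of 14 were called lower, where 15.4% of all genes were. From most to least of these markers, the control monocytes ranked as replicates 3, 4, 1, 2 and 5. In that order they held the GTPase genes at 1328.5, 1135, 1949, 1641 and 1799 CPM in sum. Without the 6 control libraries highest in these markers 4 of 8 GTPase genes passed in monocytes, Iigp1, Tgtp1, Tgtp2 and Gm4951, with a median of 0.93 over the 8. In that fit 83 of all genes passed. With the marker level as a covariate 1 passed, Gm4951, with a median of 0.94, where 7 of all genes passed. T and NK cell markers summed to 10.3 to 29.0 CPM in control and 12.6 to 64.9 CPM in treated monocytes, with 0 of 11 called by edgeR. Treated replicate 5 was again the highest of its group in T and NK markers and the lowest for all 8 GTPase genes. The part of these cells was not tested here either.

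**Figure D3:**
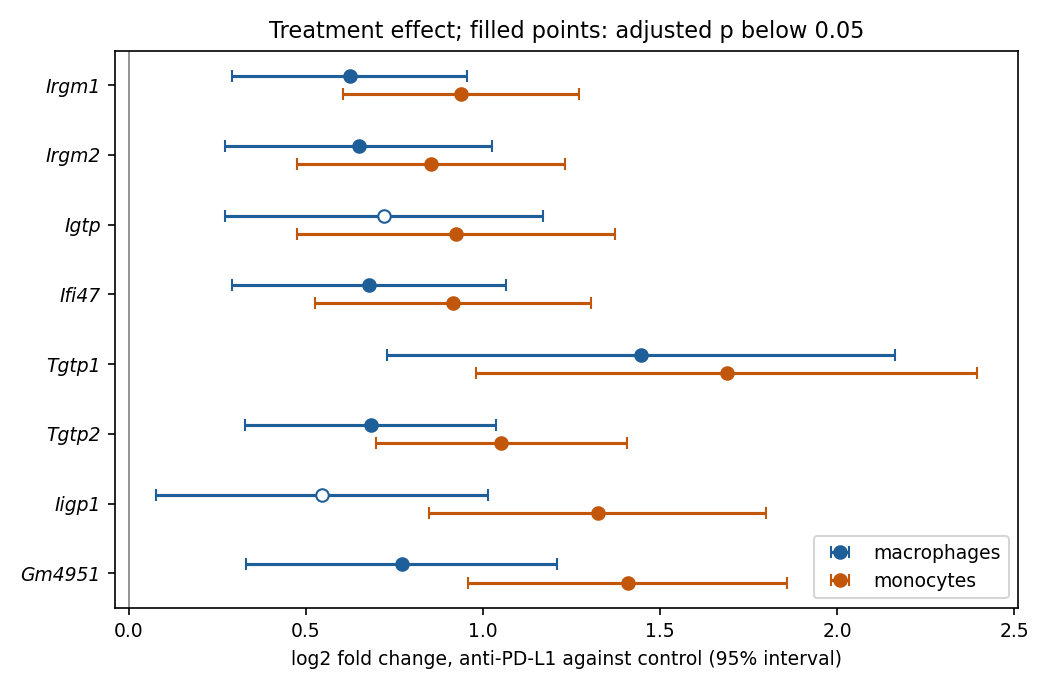
Log2 fold change of each gene under anti-PD-L1 against control, with its 95% interval, in macrophages and in monocytes (edgeR's quasi-likelihood fit, 5 libraries a group; filled points passed an adjusted p of 0.05). All estimates are above 0, from 0.55 to 1.45 in macrophages and 0.85 to 1.69 in monocytes, and the intervals of the cell types overlap for every gene.

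Whether the treatment effect differed in size between the cell types was tested as an interaction. The estimate was larger in monocytes for all 8 genes, by 0.20 to 0.78 on the log2 scale with a median of 0.28, against a median of 0.02 over all genes tested. Of all genes, 53.4% had a larger estimate in monocytes. The 8 genes varied together between libraries of a group, so they are not 8 separate cases. None of the 8 passed, and neither did any of the 15390 genes (0%; edgeR). At an unadjusted p under 0.05 there were 980 genes (6.37%), DESeq2 called 7 genes and limma-voom 0 without and 8 with the block of neighbouring libraries, and 0 of the 8 were called by any of these. Iigp1 had the largest estimate, 0.78 (SE 0.32, 95% interval 0.12 to 1.44, adjusted p = 0.73, edgeR), followed by Gm4951 with 0.64 (SE 0.30, interval 0.01 to 1.26, adjusted p = 0.77). These were the 2 members with an unadjusted p under 0.05 (0.024 and 0.045).

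For the 6 genes on chromosome 11 the interaction estimates lay between 0.20 and 0.37, and each interval held 0. The intervals ran from -0.15 to 0.78 for Irgm1, -0.33 to 0.73 for Irgm2, -0.43 to 0.83 for Igtp and -0.31 to 0.78 for Ifi47. For Tgtp1 the interval ran from -0.75 to 1.23, and for Tgtp2 from -0.13 to 0.87. Differences of up to those sizes in either direction could not be told from 0 with 5 libraries a group. Without macrophage control replicate 3 the estimates of Irgm2, Igtp and Tgtp1 turned to -0.020, -0.062 and -0.19, and without treated macrophage replicate 5 that of Tgtp1 to -0.015.

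The third question is how the sorted cells differed in these genes. The check of the sort against its markers went with the labels: 8 of 10 macrophage markers were higher and 7 of 7 monocyte markers lower in macrophages than in monocytes, in control and in treated tumours alike. In control tumours the family divided. Iigp1 and Gm4951 were higher in macrophages, 4 genes were higher in monocytes, and 2 did not pass, a total of 6 of 8 called where 44.1% of all genes were called (24.0% higher and 20% lower in macrophages, edgeR).

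Gm4951 averaged 41.6 ± 7.97 CPM in control macrophages and 12.4 ± 3.95 CPM in control monocytes (log2 difference 1.75, SE 0.22, adjusted p = 2.7e-06, edgeR). Iigp1 averaged 269.9 ± 74.3 and 128 ± 43.6 CPM (1.08, SE 0.23, adjusted p = 0.00068). The lowest macrophage library was above the highest monocyte library for both, as in 14.3% of all genes. In the other direction Ifi47 averaged 248 ± 53.6 CPM in macrophages and 460.2 ± 119 CPM in monocytes (-0.89, SE 0.19, adjusted p = 0.00064, edgeR), with overlapping libraries. Irgm1 (-0.67, SE 0.16, adjusted p = 0.0018), Igtp (-0.70, SE 0.21, adjusted p = 0.012) and Tgtp1 (-1.48, SE 0.34, adjusted p = 0.0016) were also lower in macrophages by the edgeR test, and of all 4 only Tgtp1 had no overlap (10.8% of all genes had none in that direction). Irgm2 (-0.30, SE 0.18, adjusted p = 0.20) did not pass by edgeR, nor in limma-voom without the block of neighbouring libraries (adjusted p = 0.16), and did with it (adjusted p = 0.019). Tgtp2 differed by -0.01 (SE 0.17, 95% interval -0.37 to 0.34, adjusted p = 0.96, edgeR), and summed with Tgtp1 by -0.31 (adjusted p = 0.23).

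Treated tumours kept the division, with smaller estimates on chromosome 18 and larger ones on chromosome 11, a shift that is the uncalled interaction above. Again 6 of 8 were called, where 53.9% of all genes were (28.2% higher and 25.7% lower in macrophages, edgeR). Gm4951 remained higher in macrophages, at 70.9 ± 12.4 against 32.8 ± 8.42 CPM (1.11, SE 0.21, adjusted p = 0.00020, edgeR), without overlap (25.0% of all genes). Iigp1, at 394 ± 86.7 and 319.6 ± 82.0 CPM, no longer passed (0.30, SE 0.22, adjusted p = 0.27, edgeR), nor did it in limma-voom without the block (adjusted p = 0.27), and it did with the block (adjusted p = 0.042). Irgm1 (438 ± 72.5 against 869 ± 185 CPM), Ifi47 (396 ± 66.0 against 867 ± 158), Igtp (352 ± 72.4 against 659.8 ± 175) and Tgtp1 (12.9 ± 4.52 against 42.5 ± 12.7) were lower in macrophages with no overlap (22.0% of all genes). Their log2 differences were -0.99, -1.13, -0.91 and -1.72.

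Irgm2 passed in treated tumours at -0.50 (SE 0.18, adjusted p = 0.025, edgeR), but not without treated macrophage replicate 2 or 5 or treated monocyte replicate 1 or 2. Tgtp2, at -0.38 (SE 0.17, adjusted p = 0.062), did not pass in the edgeR fit. In limma-voom it did, with the block of neighbouring libraries (adjusted p = 0.0019) and without it (adjusted p = 0.048), and Tgtp1 and Tgtp2 summed gave -0.77 (adjusted p = 0.0029, edgeR). Neutrophil markers also differed between the cell types. The 6 listed summed to medians of 59.8 and 99.2 CPM in control and treated macrophages and 214 and 340.2 CPM in control and treated monocytes, and their part in these differences was not tested.

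**Figure D4:**
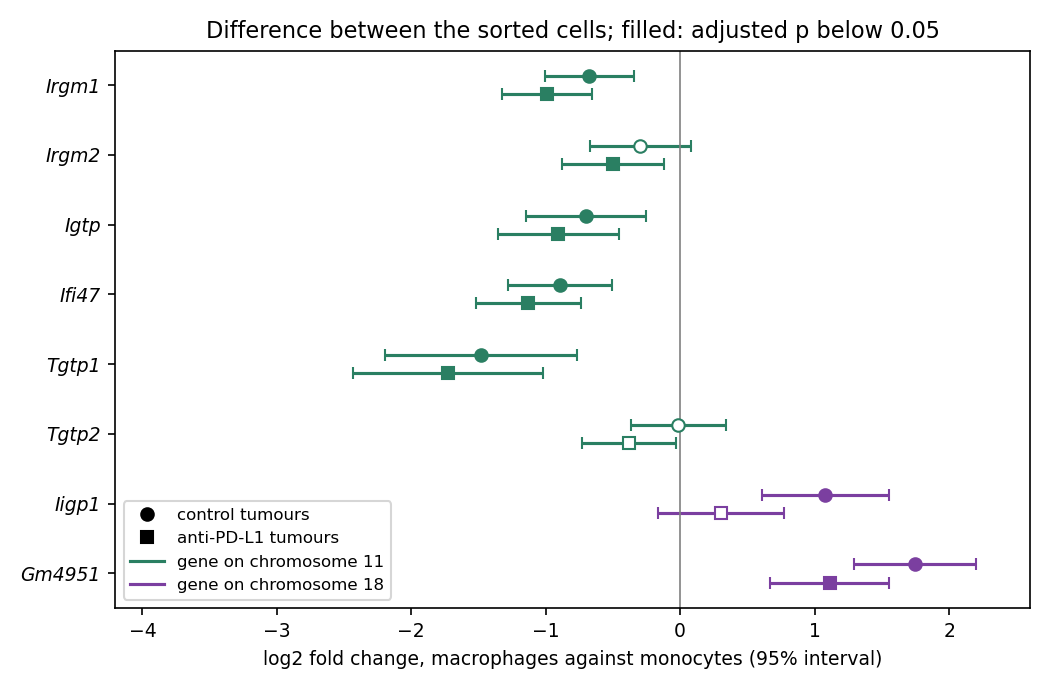
Log2 difference of each gene between macrophages and monocytes (positive: higher in macrophages), with its 95% interval, in control (circles) and treated (squares) tumours; filled symbols passed an adjusted p of 0.05 and colours give the chromosome. The 6 genes of chromosome 11 lie at or below 0 and the 2 of chromosome 18 above it.

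On chromosome 11 the 6 estimates ran from -1.48 to -0.01 in control and from -1.72 to -0.38 in treated tumours, and on chromosome 18 the 2 were 1.08 and 1.75 and then 0.30 and 1.11. The estimate of Tgtp2 in control tumours was so close to 0 that its sign turned in fits without 1 library and without the filter on low counts. Likeness in profile, measured over the 20 libraries as the root mean square difference of centred log2 CPM, was 0.15 to 0.88 between genes of chromosome 11 (15 pairs, median 0.35). It was 0.43 between Iigp1 and Gm4951 and 0.50 to 1.62 across chromosomes (12 pairs, median 0.95). With 2 genes on one side this is a description only. Chromosome 18 relatives outside the 8 genes gave F830016B08Rik at 1.45 (adjusted p = 0.0017) and Gm4841 at 0.46 (adjusted p = 0.30) in control tumours, and neither passed in treated ones (0.17 and -0.40, edgeR). Of 5 chromosome 11 relatives, 2 were called lower in macrophages in control and 3 in treated tumours, and 0 higher (edgeR). Among all genes tested, 20% were called lower in macrophages in control and 25.7% in treated tumours, and 5 relatives are few to set against these shares. Gm12250 (-0.51 and -0.69) and Gm5431 (-0.56 and -0.80) were lower in both. The mean of 9930111J21Rik1 was 7.63 CPM in macrophages against 9.89 in monocytes in control tumours, and 10.4 against 15.4 in treated ones. Positive estimates came only from genes that did not pass. These were 9930111J21Rik2 (0.38 and 0.68), at a mean of 0.284 CPM in control macrophages, and Gm12185 (0.09 and -0.42), positive in control tumours only.

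Libraries also varied together within groups. Control macrophage replicate 3 was the highest of its group for all 8 genes, and the monocyte library with the neighbouring sample number, control replicate 1, was the highest of its own group for 6 of 8. At the other end, treated macrophage replicate 5 and its neighbour, treated monocyte replicate 5, were each the lowest of their groups for all 8 genes. Treated monocyte replicate 2 was the highest for all 8, and its neighbour, treated macrophage replicate 4, for 5. Labels do not say that neighbours share a tumour.

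The cell types were also compared within the 10 neighbouring pairs, as a description. Iigp1 was higher in the macrophage library in 5 of 5 control pairs, by 0.96 to 1.19 log2 units, and in 5 of 5 treated pairs, by 0.12 to 0.55. The difference in treatment effect was not called by edgeR (adjusted p = 0.73), whose model takes no account of the pairs. It was not called either in limma-voom with neighbouring libraries as a block. Gm4951 was higher in the macrophage library by 1.52 to 2.23 in control and 0.85 to 1.34 in treated pairs. Irgm1, Igtp, Tgtp1 and Ifi47 were higher in the monocyte library in 5 of 5 control and 5 of 5 treated pairs, Irgm2 in 4 and 5, and Tgtp2 in 3 and 5. Of all genes tested, 30.8% were higher in the macrophage library in 5 of 5 control and 33.9% in 5 of 5 treated pairs, and 30.0% and 31.5% were higher in the monocyte library, so such a count is common.

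**Figure D5:**
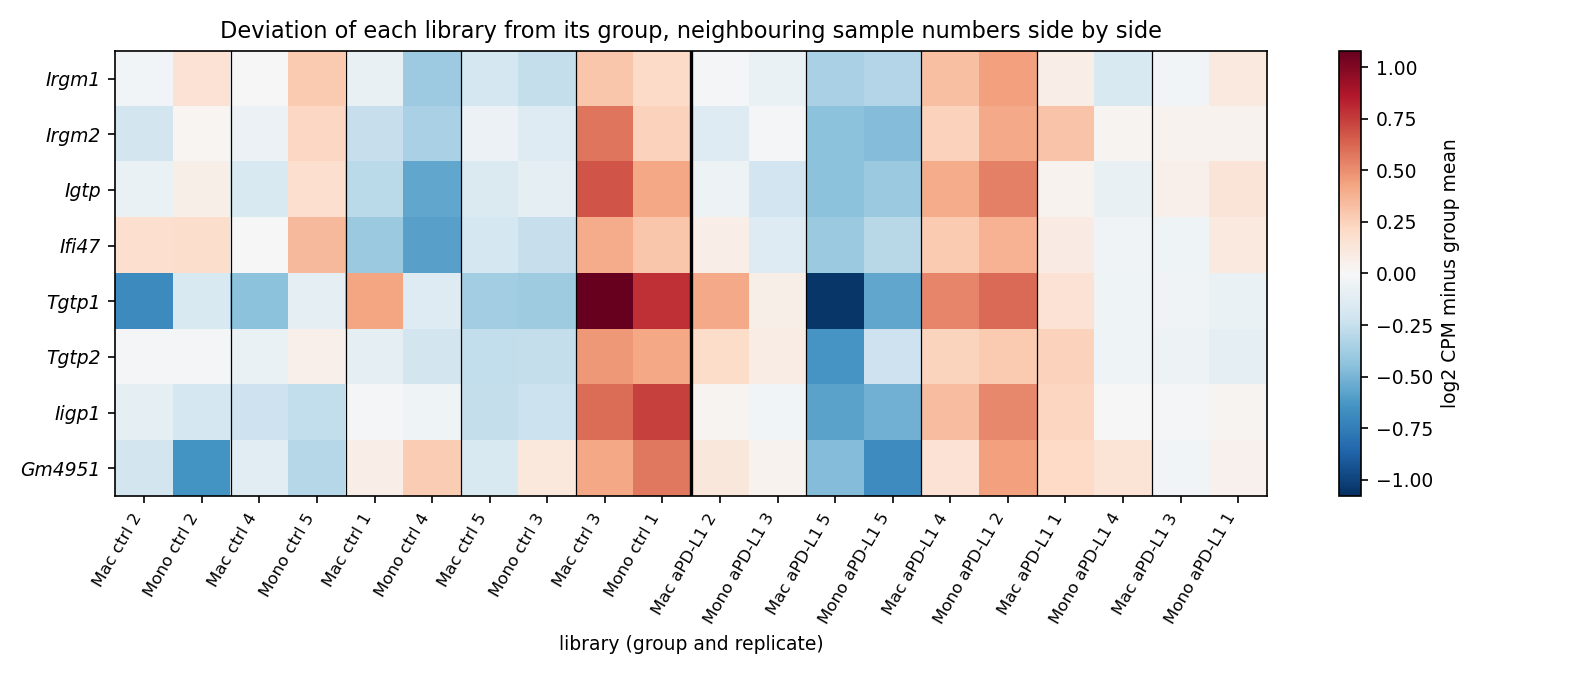
Log2 CPM of each gene in each library minus its group mean (colour scale), with the macrophage and monocyte libraries of neighbouring sample numbers side by side (thin lines divide the pairs, the thick line divides control from treated; aPD-L1, anti-PD-L1). Macrophage control 3 and monocyte control 1 are red together, and macrophage and monocyte anti-PD-L1 5 are blue together.

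Other immunity related GTPase genes moved less evenly. Of 10 listed, 9 were matched and tested, and 3 rose in macrophages and 6 in monocytes (edgeR). For these and the lists that follow, the shares of all genes that rose were 1.73% in macrophages and 9.92% in monocytes. Gm12250, which encodes Irgb10, an effector with a part in the killing of bacteria in the cytosol, rose by 0.76 (SE 0.15, adjusted p = 0.036) in macrophages and by 0.93 (SE 0.15, adjusted p = 0.0032) in monocytes. Gm12185 rose by 1.34 and 1.85 and Gm5431 by 0.65 and 0.89. In monocytes 9930111J21Rik1 (0.64), F830016B08Rik (1.47) and Gm4841 (1.29) rose too, and were at 0.44, 0.19 and 0.44 without passing in macrophages, but the difference was not called for any of them. Irgq (-0.05 and -0.21) and Irgc1 (0.05 and 0.66) did not pass in either cell type. Of the 6 relatives with a promoter in the table, Gm12250 and Gm12185 held both elements, in Gm12185 with the same 2 bases between them.

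Of the 11 listed genes of the interferon-gamma pathway, 2 rose in macrophages and 7 in monocytes (edgeR, medians 0.39 and 0.53). Ifng itself, the gene of the ligand, was near the floor, at 0 to 44 counts per library, and did not pass (0.16 and 0.75). Of the receptor genes, Ifngr1 did not pass (0.06 and 0.21), while Ifngr2 rose in monocytes by 0.37 (adjusted p = 0.0057) and was at 0.25 in macrophages (adjusted p = 0.068). Jak1 rose in monocytes (0.31) and did not pass in macrophages, where it averaged 223 CPM in control and 248 CPM in treated libraries. Jak2 (0.42 and 0.53) and Stat2 (0.39 and 0.46) passed in neither. Socs1, the pathway's feedback inhibitor, rose by 0.99 (adjusted p = 0.047) and 1.02 (adjusted p = 0.013).

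Among the IRF genes, Irf1 rose in monocytes by 0.77 (adjusted p = 0.0060, edgeR) and was at 0.58 in macrophages (adjusted p = 0.054). Irf8 (0.67) and Irf9 (0.35) rose in monocytes and were at 0.52 and 0.24 in macrophages without passing. For Irf8, Irf9, Ifngr2, Jak1 and Socs1 every treated macrophage library was above every control one, as in 4.11% of all genes. Libraries overlapped there for Ifng, Ifngr1, Jak2, Stat2 and Irf1. Between the cells, 7 of 11 pathway genes were lower in macrophages in control and 7 of 11 in treated tumours, and 0 higher. The shares of all genes called lower in macrophages were 20% in control and 25.7% in treated tumours (edgeR). In control tumours Jak2 differed by -1.73, Socs1 by -1.68 and Irf1 by -1.19, as most of the chromosome 11 GTPase genes did in sign and Iigp1 and Gm4951 did not.

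Partner families gave unlike counts. Of 11 guanylate binding protein genes, 2 rose in macrophages (Gbp3 and Gbp5, median of the list 0.62) and 9 in monocytes (median 0.92; edgeR). Of 11 genes of LC3 conjugation, 0 were called in macrophages by edgeR (median 0.06), and in monocytes Atg3, which encodes the enzyme that attaches LC3 to lipid, rose by 0.32 (median of the list 0.20), 1 of 11 being close to the share of all genes. Of 3 ubiquitin genes, Trim21, a ubiquitin ligase, rose by 0.52 in monocytes and was at 0.37 without passing in macrophages. Of 14 genes typical of type I interferon, 1 rose in macrophages (Ifi44, 0.66) and 9 in monocytes (medians 0.36 and 0.63).

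Among the other genes whose profile over the 20 libraries was nearest to the mean profile of the 8 were Gbp6, Slamf8, Gm12250, Tmem67 and Gbp4. Their root mean square differences were 0.14, 0.17, 0.19, 0.19 and 0.21 log2 units, against a median of 0.64 over all such genes. Within the family, Tgtp2 (0.13) and Irgm2 (0.16) lay nearest to that mean and Gm4951 (0.94) and Tgtp1 (0.79) farthest from it.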

How the data were processed

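RNA-seq of 20 libraries was used. Per the labels' protocols a stranded total RNA kit was used with 0.1 ug of RNA as input, while another label calls the molecule polyA RNA. Alignment was by GSNAP to GRCm38, per the submitters' processing notes (not given in the sources used here: versions, annotation, counter and strand setting). Per the file headers, the authors deposited for each of 36528 gene models a count of reads aligning uniquely and an RPKM adjusted by a size factor (nRPKM). The deposited counts were used for all tests, and nRPKM only to order genes by level. RefSeq names matched 31049 models (97.97% of counts). Totals were 30191509 to 36514133 counts per library, and a floor of 3 counts was at most 0.0994 CPM, which covers counting error only.

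Counts were fitted in edgeR 4.0.16 (R 4.3.3) with filterByExpr, TMM and a quasi-likelihood model of 4 group means. Adjusted p-values are Benjamini-Hochberg over 15390 genes, called under 0.05. SE is the log2 fold change over the square root of F. Log2 CPM used a prior count of 2. Alternatives were DESeq2 1.42.0, limma-voom 3.58.1, RLE scaling, no filter, a replicate block, a fibroblast covariate, fewer controls, the Tgtp genes summed, and leaving out each library. Macrophage and monocyte libraries with neighbouring sample numbers deviated from their group means together (r = 0.22 to 0.72 across genes in 10 of 10 pairs, though in 1 control pair r was 0.42 against 0.46 with another library) and served as the block (correlation 0.53). The pairing comes from these numbers alone. All 8 genes are named, listed relatives and pathway genes by role, at most 4 of other lists by smallest p, and the 6 most alike genes of a mean log2 CPM of at least 2. Genes and lists were chosen with earlier results of these data known. A gene that these rules would name is counted in its list but not reported here.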

Additional observations from a re-analysis of the deposited data

Results flagged for a closer look

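In each of the 32 sets of 5 libraries (8 genes in 4 groups), the highest and the lowest library were set against the rest, and 5 libraries stood apart by a gap of over 0.71 of their group's range; chance alone gives about 1 in 20. Macrophage control replicate 3 was high for Irgm2 (146 CPM against 82.4 to 94.2 in the other 4), for Igtp (332 CPM against 169 to 197) and for Iigp1 (399.8 CPM against 220.2 to 259). Monocyte control replicate 1, the library with the neighbouring sample number, was high for Iigp1 (205 CPM against 102 to 119) and for Tgtp1 (21.8 CPM against 9.68 to 11.8). The 5 are values of 2 libraries and are not independent of one another.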

How the results depend on the processing

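Of 8 members, the number called in macrophages went from 6 to 3 without the filter on low counts, to 0 in limma-voom, to 0 with the fibroblast covariate and to 1 without the 6 controls that are richest in fibroblast markers, and in monocytes from 8 to 1 with the covariate and 4 without those libraries. The 6 controls leave 2 in each cell type, so fewer samples enter that fit. For the other moves the cause was not tested. Leaving out 1 library at a time gave 0 to 7 called in macrophages, 8 to 8 in monocytes, 0 to 0 for the interaction, 6 to 7 between cells in control and 5 to 7 in treated tumours. Median log2 fold changes then ran from 0.66 to 0.86, 0.87 to 1.11, 0.13 to 0.43, -0.63 to -0.41 and -0.77 to -0.54. Limma-voom called 0, 8, 0, 6 and 7 members in these 5 comparisons without and 7, 8, 0, 7 and 8 with the replicate block. The block thus changed 7 calls in macrophages, and those of Irgm2 in control and Iigp1 in treated tumours between cells. Against edgeR, tool and block change together.

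The interaction turned sign without the 6 controls for Irgm2 (-0.085), Igtp (-0.071) and Tgtp1 (-0.31), and in fits without 1 library their ranges were -0.020 to 0.29, -0.062 to 0.32 and -0.19 to 0.50. Tgtp2 between cells in control tumours was 0.0040 without the filter and -0.17 to 0.11 in fits without 1 library. For these the cause was not tested. Over all genes, 715 were called in macrophages, against 1878 in DESeq2, 191 in limma-voom, 243 with the block, 1193 with the macrophage libraries alone, 2 with the covariate, 70 without the 6 controls and 14 to 1928 without 1 library. In monocytes 3900 were called, against 2019 with the monocyte libraries alone, 7 with the covariate, 83 without the 6 controls and 1883 to 5359 without 1 library.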
